A study of Microtus ochrogaster with 23 samples.

Results

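DNA methylation of the hippocampal dentate gyrus (DG) was compared between “Parental” and “Father” male prairie voles in windows of 1 kb. A window was kept if it held at least 3 cytosines covered by 10 or more reads each, in 4 or more “Parental” and 4 or more “Father” animals, with chromosome X left out. This left 64954 windows of the 567614 windows outside X that had a read in any of the 23 animals of the study, and 192706 had enough covered cytosines in at least 1 of the 11 animals compared. The level of a window in an animal was the mean percentage of methylated reads over its covered cytosines.

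The 6 “Parental” animals were wild-type virgin males, kept with a same-sex sibling, that cared for an unfamiliar pup in a behavioral test. The 5 “Father” animals were wild-type males that had been paired with a female and were living with her and their own litter when they took the same test. Both groups were adult, were killed directly after the test and contributed 1 library per animal, made from bilateral tissue punches of the DG. They differed in mating, cohabitation with a female and life with a litter at once, and these cannot be told apart. The other 12 animals were 6 “Attacker” virgin males, which attacked the pup, and 6 “Mother” females. They entered no test here. A punch mixes granule neurons, interneurons and glia, so a different share of a cell type and a different level within cells cannot be told apart. The deposited methylation calls hold no expression values, so the labelled tissue was not checked against its marker genes.

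Methylation of the cytosine in a CpG dinucleotide is a stable mark that cells copy at division and can add or remove in neurons. CpG-dense stretches at gene starts are usually free of it, whereas most CpGs within and between genes carry it. Reduced representation bisulfite sequencing (RRBS) reads CpGs near the cut sites of the enzyme MspI, so CpG-dense stretches fill much of the data. Windows allow animals to be compared over several neighbouring CpGs, at the price that the covered cytosines of a window can differ from animal to animal.

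The libraries held 69692806 to 103389420 calls in “Parental” and 69449485 to 129376223 in “Father” animals, a difference within the spread of the animals (p = 0.580, two-sided exact permutation test over 462 splits of the animals). Of the 64954 windows, between 57984 and 63007 had a level in each “Parental” animal and between 61964 and 62778 in each “Father” animal, and 44112 windows (67.9%) had one in all 11. No pair of libraries was identical, with mean absolute differences of window levels from 6.00 to 7.45 percentage points and correlations across windows from 0.886 to 0.924.

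Most windows were either nearly free of methylation or of an intermediate level. Of all windows, 30212 (46.5%) had a mean level under 10%, 16999 lay at 10 to under 50%, 13978 at 50 to under 90%, and 3765 at 90% or more. Windows under 10% held a median of 27 covered cytosines, against 6 in windows at 10 to under 50%. Windows within annotated genes had a lower mean level than windows outside genes, at 24.9% and 35.6% in “Parental” and 24.9% and 35.7% in “Father” animals. These places come from the spans of genes on the placed part of the MicOch1.0 assembly, which held 47182 of the windows. The other 17772 windows lay on unplaced scaffolds and were not annotated.

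The mean level over windows differed between the groups by less than the spread between animals. Over the 44112 windows measured in every animal, “Parental” animals had mean levels of 17.9, 18.1, 18.98, 19.2, 18.8 and 19.7%, and “Father” animals of 18.4, 18.1, 18.1, 19.8 and 19.96%. The ranges overlapped almost whole, and “Father” animals fell apart into 3 at the low end and 2 at the top. The group means were 18.8% ± 0.674 (SD, n = 6) and 18.9% ± 0.924 (SD, n = 5), a difference of -0.0862 percentage points (p = 0.827, two-sided exact permutation test; the smallest p this design allows is 0.00433).

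In no class of windows did the groups differ beyond this spread. Windows at 10 to under 50% averaged 25.8% ± 1.75 (SD, n = 6) in “Parental” and 26.1% ± 2.44 (SD, n = 5) in “Father” animals, and windows at 50 to under 90% averaged 70.6% ± 1.67 and 70.7% ± 2.14. Windows under 10% stood at 2.02% in both groups. The exact permutation tests of the 4 level classes, of windows within genes and of windows outside genes all gave an adjusted p of 0.978 (Benjamini-Hochberg over the 6 classes).

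**Figure D1:**
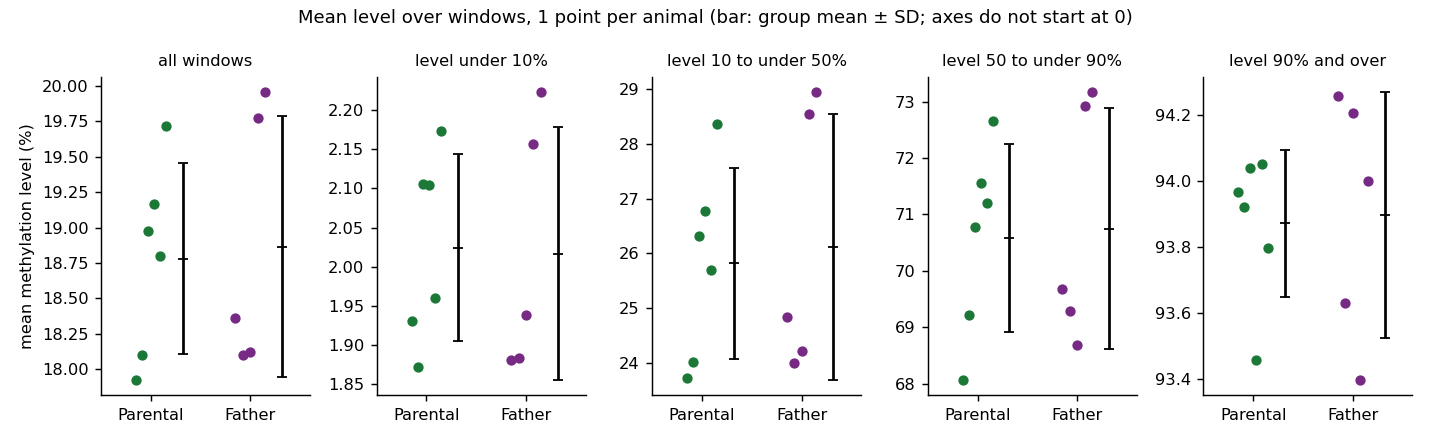
Mean methylation level (%) per animal over the 44112 windows measured in all 11 animals, and over 4 classes of windows by level. Each point is an animal and each bar a group mean with its SD; “Father” animals 4 and 5 and “Parental” animal 6 lie highest in the windows at 10 to under 50%, at 28.6, 28.96 and 28.4%.

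The animals with the highest mean levels had the lowest depth. “Father” animals 4 and 5 and “Parental” animal 6 had a median of 21, 22 and 22 reads per covered cytosine, whereas the others ranged from 23 to 43. Over the 11 animals, mean level and median depth were related with Pearson's r = -0.612 (p = 0.0337, permutation test) and Spearman's rho = -0.674 (p = 0.0270, permutation test), the only relation of this kind computed. Without “Father” animals 1 and 4, the farthest from the median depth, r was -0.746 (p = 0.0255) and rho -0.628 (p = 0.0786) in permutation tests, so the rank relation no longer passed 0.05. Under 3 alternatives chosen after seeing the data, r was -0.657 on cytosines shared by the animals (p = 0.0220), -0.666 with reads pooled within a window (p = 0.0163) and -0.578 with at least 20 reads per cytosine (p = 0.0534), all in permutation tests, so that with 20 reads it no longer passed 0.05. Median depth itself did not differ between the groups beyond the spread (p = 0.481, exact permutation test). The part of depth in the windows' differences was not tested.

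Animals were no nearer to their own group than to the other group. The mean absolute difference of window levels was 6.63 points among “Parental” animals, 6.79 among “Father” animals and 6.69 between groups. The distance between groups exceeded that within groups by 0.000407 points (p = 0.461, one-sided exact permutation test). “Father” animals did not vary more than “Parental” animals beyond what splits of the animals gave (difference of -0.163 points, p = 0.623, two-sided exact permutation test). “Parental” animal 3 was the nearest animal of all 5 “Father” animals, at 6.08 to 6.66 points, and of all 5 other “Parental” animals, at 6.00 to 6.69 points. On average 5 of the 6 “Parental” and 0 of the 5 “Father” animals were closer to their own group.

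**Figure D2:**
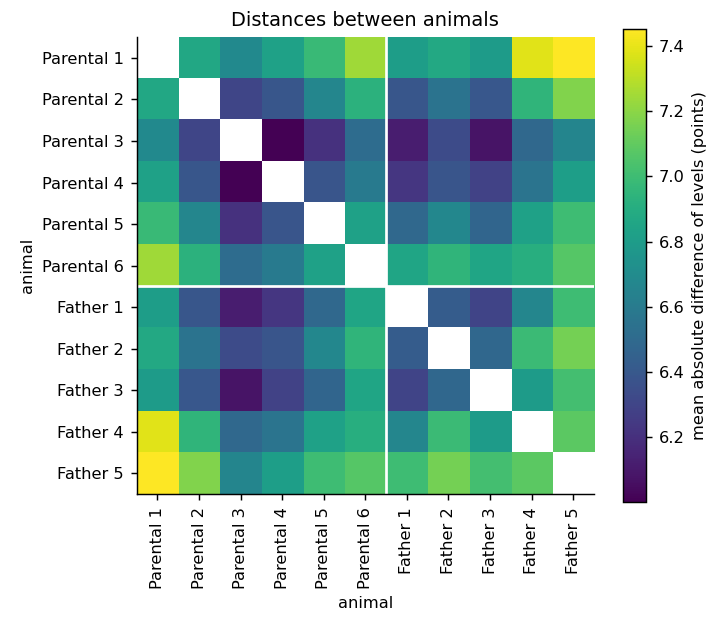
Mean absolute difference of window levels (percentage points) between each pair of the 11 animals over 44112 windows, with white lines between the groups. The blocks within and between groups share 1 range, from 6.00 points (“Parental” animals 3 and 4) to 7.45 points (“Parental” animal 1 and “Father” animal 5).

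No window differed between “Parental” and “Father” at an adjusted p under 0.05 (limma with Benjamini-Hochberg adjustment, 0.0% of 64954 windows), and the smallest adjusted p was 0.574. edgeR on the methylated and unmethylated reads also gave 0. An unadjusted p under 0.05 was found in 2686 windows (4.14%) with limma and in 1799 with edgeR. A p under 0.05 together with a difference over 15 points, the criterion the study used for single CpGs, was met by 1412 windows (2.17%), of which 669 (1.03%) were higher in “Parental” and 743 (1.14%) in “Father” animals. In 228 windows (0.351%) every “Parental” animal lay above every “Father” animal, and in 212 (0.326%) the reverse.

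The precision of a window followed its level. In windows under 10% the median standard error of the difference was 0.608 points, and 95.5% of them had a 95% interval wholly inside 15 points either way. In windows at 10 to under 50% and at 50 to under 90% the median standard error was 8.38 and 9.21 points, and the interval lay inside 15 points in 13.6% and 6.42% of windows. For most windows of intermediate level the interval therefore did not exclude a difference of 15 points, at this depth and number of animals. These 2 classes held 49.3% and 48.3% of the 1412 windows, whereas windows under 10% held 14 windows. Windows were classed by the mean of the 2 group means. A window under 10% can thus differ by over 15 points only if a group is nearly unmethylated. Its low count and its share of intervals inside 15 points are therefore partly set by the class limit.

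**Figure D3:**
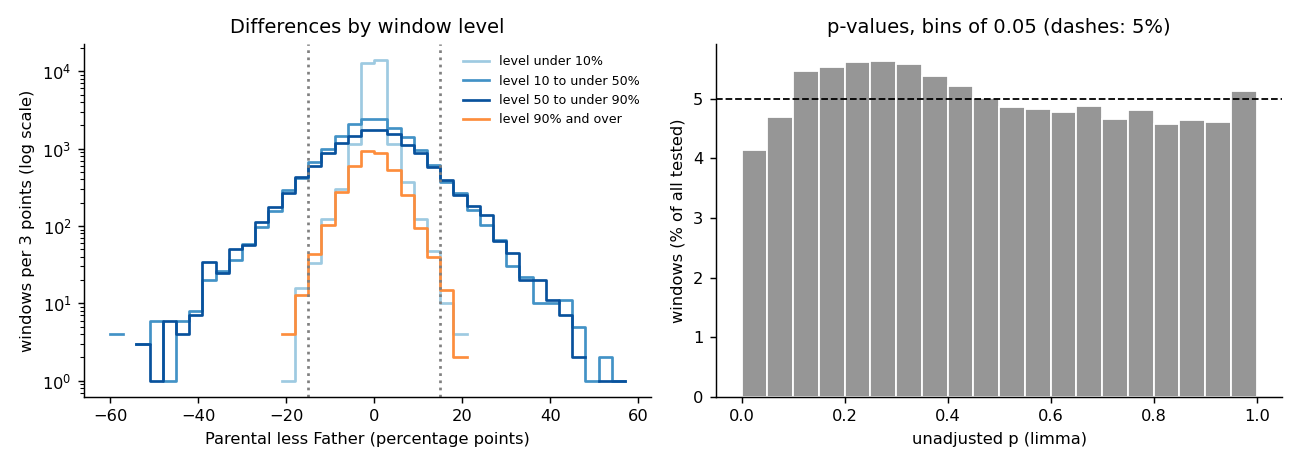
Left, number of windows (log scale) by the difference between “Parental” and “Father” in percentage points, in steps of 3 points, for 4 classes of window level, with dots at 15 points either way. Right, percentage of the 64954 windows by unadjusted limma p in bins of 0.05; the bin next to 0 holds 4.14%, below the dashed line at 5%.

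Windows past that criterion were spread over the genome. They made up 1.17% (linkage group LG10) to 3.89% (chromosome 26) of the windows of a chromosome, and 1.85% within genes against 2.91% outside genes. They were more frequent where fewer cytosines were measured, at 4.27% of windows with a median under 5 cytosines and 0.509% of those with 10 or more. These 2 kinds of windows also differed in level, averaging 48.0% and 11.4% in “Parental” animals. By an unadjusted limma p under 0.05 alone, the shares were 5.38% and 3.10%, and 3.99% within genes against 4.68% outside genes. A level in all 11 animals was present in 500 (35.4%) of the windows past the criterion, beside 67.9% of all windows. The criterion was met by 1.13% of windows with a level in all 11 animals and by 4.38% of those with 8 to 10.

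The windows with the smallest p values higher in “Parental” animals are given next, and none passed the adjusted threshold. These windows, and those higher in “Father” animals below, were picked by the same levels that are printed for them. Groups that do not overlap and cytosines of the same sign are therefore no separate support for them. A window within Cdkl1 (chromosome 1, 8020000 to 8020999), which encodes a cyclin-dependent kinase-like protein, had levels of 50, 70.5, 80.8, 64.7, 62.4 and 74.03% in “Parental” animals 1 to 6 and of 0, 8.33, 33.3, 25.5 and 0% in “Father” animals 1 to 5. All “Parental” animals lay above all “Father” animals. The difference was 53.6 points (95% interval 35.6 to 71.7, limma adjusted p = 0.574). It rested on 3 to 7 cytosines per animal. Their summed read counts were 36 to 192 per animal, where a read over several cytosines counts at each. No cytosine was covered in every animal, and the sign was the same at 7 of 7 cytosines seen in both groups. Of the other animals 4 “Attacker” and 4 “Mother” animals had a level there, at 33.3 to 58% and 26.6 to 74.3%, and only “Mother” animal 4 (42.9%) lay between the groups.

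A window between genes on linkage group LG3 (13134000 to 13134999), 76364 bp from the uncharacterized gene LOC101980462, was measured on the same cytosines in every animal. Read counts summed over its 4 cytosines were 216 to 864 per animal, and a read over several cytosines counts at each. “Parental” levels were 90.2, 100, 95.3, 94.1, 94.8 and 94.8%, and “Father” levels were 73.9, 68.1, 72.03, 74.6 and 79.4%. The groups did not overlap, the sign was the same at all 4 cytosines, and the difference was 21.3 points (13.2 to 29.4, limma adjusted p = 0.932). “Attacker” animals ranged from 82.3 to 98.03% and “Mother” animals from 87.5 to 100%, all above the “Father” animals.

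Hspa12a encodes an atypical member of the HSP70 chaperone family. A window within it (chromosome 8, 86330000 to 86330999) stood at 29.2, 13.8, 24, 31.7, 16.7 and 32.3% in “Parental” animals, and 4 of the 5 “Father” animals were at 0, with “Father” animal 2 at 7.45%. The difference was 23.1 points (13.8 to 32.4, limma adjusted p = 0.950), and 12.4 points on the 3 cytosines covered in every animal. The sign was the same at 3 of 3 cytosines seen in both groups. “Attacker” and “Mother” animals ranged from 0 to 40% and from 0 to 33.9%, across both groups.

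In a window shared by Necab3, a neuronal calcium-binding protein gene, and Actl10, an actin-like gene (LG8, 23690000 to 23690999), 5 “Parental” animals had 74.2, 74.2, 69.1, 54.1 and 61.7% and the “Father” animals 45.2, 3.41, 32.5, 13.5 and 10.9%. “Father” levels spread far more widely than “Parental” levels, with SDs of 17.2 and 8.65 points. The difference was 45.6 points (25.7 to 65.4, limma adjusted p = 0.950), but only 1 cytosine was covered in every animal, and there it was 13.5 points. With windows shifted by 500 bases, the difference in the window around its midpoint was 2.84 points. The sign was the same at 3 of 4 cytosines seen in both groups. The remaining window of these 5, on an unplaced scaffold (1834000 to 1834999), had 81.2 to 100% in 6 “Parental” animals and 60, 60.9, 60 and 76.5% in 4 “Father” animals, a difference of 28.2 points (limma adjusted p = 0.950). Its sign was found at 2 of 3 cytosines seen in both groups.

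The windows higher in “Father” animals began with one 177 bp from A4galt (chromosome 15, 27866000 to 27866999), the gene of the enzyme that makes the glycolipid Gb3, and none of them passed the adjusted threshold either. “Parental” levels were 11.1, 13.98, 17.5, 1.67, 2.22 and 0%, and “Father” levels 50, 40, 50, 33.6 and 50%. The groups were far apart, with a difference of -36.96 points (-48.98 to -24.9, limma adjusted p = 0.574). The number of covered cytosines ran from 4 to 16 per animal, and on the 3 cytosines covered in all 11 animals the difference was -9.91 points. Of 10 cytosines seen in both groups, 6 had the sign of the window. Shifted by 500 bases, the window around its midpoint differed by -3.47 points.

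Hlf encodes a PAR bZIP transcription factor of the circadian output pathway. A window within it (chromosome 7, 66520000 to 66520999) was measured in 4 animals of each group, at 0, 10, 12.1 and 25% in “Parental” and 66.7, 66.7, 75.9 and 66.7% in “Father” animals. The difference was -57.2 points (-75.2 to -39.2, limma adjusted p = 0.668), and -22.0 points in a window of 2 kb. No cytosine was covered in all of these animals, and each had 3 to 7 cytosines. The sign was the same at 3 of 4 cytosines seen in both groups. “Attacker” and “Mother” animals ranged from 0 to 66.7% and from 0 to 61.5%.

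Med30 encodes a subunit of the Mediator complex, which links transcription factors to RNA polymerase II. In a window 231 bp from it (LG3, 1918000 to 1918999), “Parental” animals had 13.9, 40.4, 19.95, 29.7, 27.1 and 13.1% and 4 “Father” animals had 84.5, 68.8, 61.6 and 80.7%. The difference of -49.9 points (-67.4 to -32.4, limma adjusted p = 0.668) changed little on the 4 shared cytosines, where it was -43.4 points, and 7 of 8 cytosines seen in both groups had its sign. “Attacker” animals, at 14.95 to 46.4%, lay below every “Father” animal, whereas “Mother” animals ranged from 16.5 to 74.9%.

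Both other windows higher in “Father” animals lay on unplaced scaffolds. One (1148000 to 1148999) had 0.936, 1.66, 1.92, 0.358, 0 and 0% in “Parental” and 9.33, 10.1, 7.49, 11.4 and 9.78% in “Father” animals. Its difference of -8.82 points was small but its spread was smaller still, with SDs of 0.836 and 1.43 points (limma adjusted p = 0.574), and it alone passed the threshold without the trend and robust options of limma (adjusted p = 0.0224). It rested on 7 to 21 cytosines per animal, and on the 7 shared ones the difference was -3.29 points. Shifted by 500 bases, the window around its midpoint differed by -0.810 points, and the sign was the same at 11 of 22 cytosines seen in both groups. The other window (211000 to 211999) had 57.8 to 69.4% in 4 “Parental” and 90.3 to 100% in 4 “Father” animals, a difference of -32.2 points (limma adjusted p = 0.950). Its sign was found at 2 of 3 cytosines seen in both groups.

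**Figure D4:**
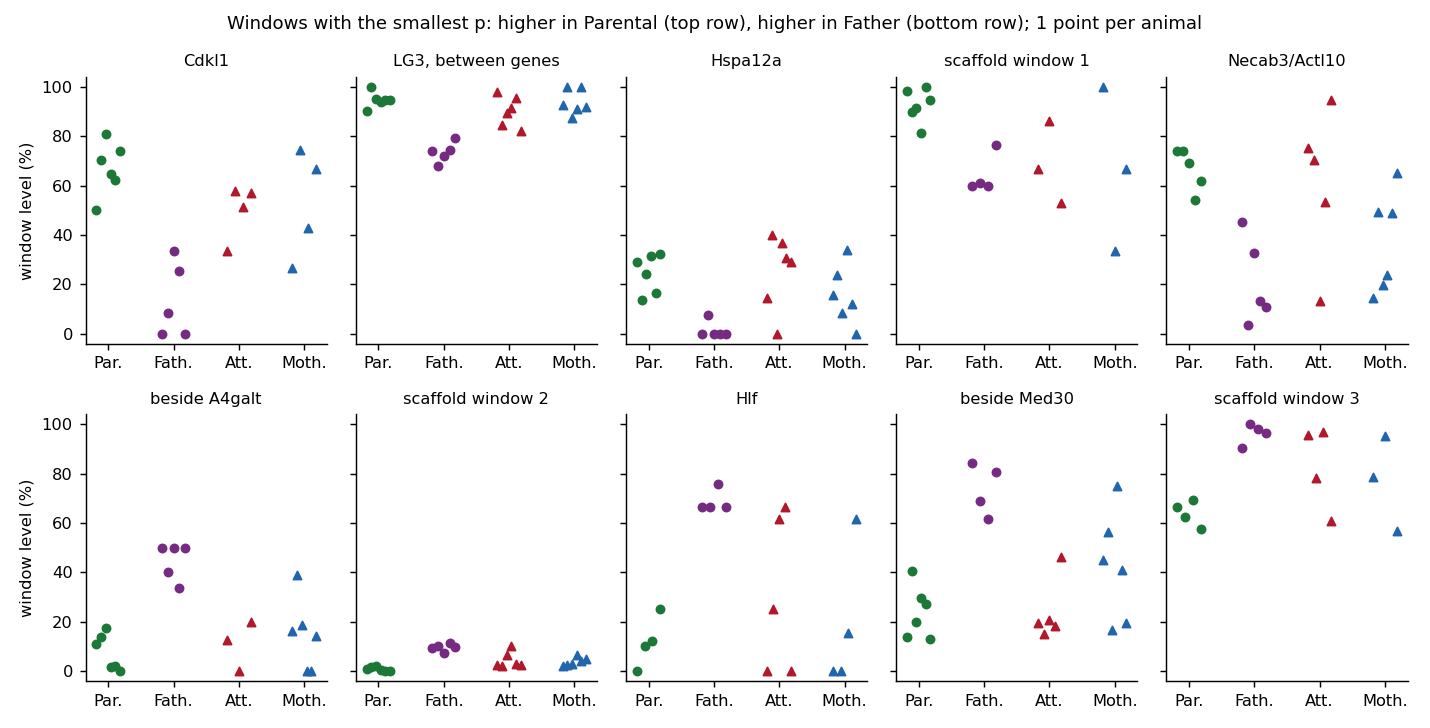
Window level (%) in each animal for the 5 windows with the smallest p higher in “Parental” (top) and the 5 higher in “Father” (bottom); circles are the compared “Parental” and “Father” animals, triangles the “Attacker” and “Mother” animals. In all 10 windows, which were picked by the levels of the circles, the circles of both groups stay apart. In several the triangles reach into the gap between the groups of circles, as in Cdkl1 with “Mother” animal 4 at 42.9%.

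Single cytosines in these windows were often read as wholly methylated or wholly unmethylated. In the window beside A4galt 79.8% of the 89 cytosine levels of the 11 animals were exactly 0 or 100%, in Hlf 80.6% of 36, in Cdkl1 65% of 40 and in the LG3 window between genes 36.4% of 44. Over all windows compared, the share was 55% at window levels of 10 to under 50% and 61.6% at 50 to under 90%. The reads carried no molecular identifiers, so the number of molecules behind a level of 0 or 100% is not known.

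Restricting each window to cytosines covered in every animal that had a level there changed the list. Of the 1412 windows past p under 0.05 and 15 points, 612 (43.3%) kept at least 3 such cytosines, beside 45767 (70.5%) of all windows. In the 612 windows the median absolute difference was 22.4 points on the cytosines each animal had and 19.4 points on the shared ones. The sign was kept in 593 of the 612, beside 35088 of the 45767, and 328 (53.6%) were still past the criterion. The shared cytosines are part of the reads by which these windows were picked, so a kept sign is no separate support.

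The other 12 animals split evenly at these windows. “Attacker” and “Mother” animals differ in sex as well as in experience, and share no animal with the compared groups. At 1099 of the 1412 windows at least 4 animals of each were measured, and the difference of “Attacker” less “Mother” had the sign of “Parental” less “Father” in 546 (49.7%), beside 29153 (49.97%) of 58340 windows in all. A difference over 15 points was found in 9.83% of the 1099 windows in the same direction and in 9.74% in the opposite direction. Over the 58340 windows these shares were 3.36% and 3.48%.

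Of the 11878 genes with a window within 2 kb of their span, 598 had a window past p under 0.05 and 15 points, and 34 times a gene had at least 2 in the same direction. The criterion was met by 2.17% of all windows, 1.03% higher in “Parental” and 1.14% higher in “Father” animals. The genes named next were picked by their number of such windows in 1 direction. These counts are therefore no separate support for them. Magi2, which encodes a scaffold protein of synapses, had the most, with 4 of its 35 windows higher in “Parental” animals and 2 higher in “Father” animals. The 4 differed by 16.4 to 42.04 points and lay on chromosome 26 between 11860000 and 12749999, with a neighbouring pair at 12442000 to 12443999. In the one at 11860000 to 11860999, “Parental” levels were 65.02, 70.5, 76.2 and 90.2% and “Father” levels 47.4, 50, 51.03 and 47.2%, a gap wider than the spread of the “Father” animals. In the one at 12749000 to 12749999 the groups overlapped, at 25.96 to 90.9% in 5 “Parental” and 0 to 60.9% in 5 “Father” animals. The median difference over all 35 windows of Magi2 was 1.23 points.

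Zmynd8, the gene of a chromatin reader of acetylated histones, had 3 of 9 windows higher in “Father” animals, by 17.8 to 25.8 points (LG8, 12662000 to 12727999). At the largest of them (12727000 to 12727999) “Parental” levels were 61.1, 71.9, 54.9, 61.7, 50.8 and 100% and “Father” levels 93.3, 83.7, 90.7, 94.9 and 100%. “Parental” animal 6 alone reached the “Father” range. On the 4 shared cytosines the difference was -14.4 points. In the windows at 12662000 and 12706000 it was -17.8 and -18.1 points, and -7.52 and -4.20 points on the 3 shared cytosines of each. The median difference over all 9 windows was 0.0888 points.

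Tcf7l2, a transcription factor that acts with β-catenin at the end of the canonical Wnt pathway, had 3 of 24 windows higher in “Father” animals, by 19.4 to 23.3 points (chromosome 8, 83086000 to 83176999), and none higher in “Parental” animals. The groups overlapped in all 3. At 83122000 to 83122999 “Parental” animals had 26.02, 37.00, 3.47, 24.4, 11.5 and 14.7% and “Father” animals 31.5, 40.6, 43.2, 21.8 and 57.3%. The difference there was -19.4 points, and -17.7 points on the 3 shared cytosines. It turned from -20.6 to 2.64 points on the 2 shared cytosines at 83086000 and went from -23.3 to -10.1 points on the 4 at 83176000. The median difference over all 24 windows was -0.731 points. Camta1, a calmodulin-binding transcription activator gene, had 3 of 53 windows (5.66%) higher in “Father” animals, by 18.4 to 21.6 points, and a median difference over all 53 windows of 0.517 points, toward “Parental”. Besides the window shared with Actl10, Necab3 had a second one higher in “Parental” animals, within the neighbouring E2f1 (LG8, 23684000 to 23684999), at 20, 80, 100 and 100% against 12.3, 0, 40 and 26.7%. Its difference of 55.3 points was 7.37 points in a window of 2 kb and 1.22 points with windows shifted by 500 bases, no cytosine was covered in all of these animals, and the sign was the same at 4 of 10 cytosines seen in both groups. The smallest adjusted p over the windows of each of these 5 genes was 0.950 (limma).

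The gene lists covered the signalling, plasticity and cell types that parental behavior and the DG bring to mind. They held 504 genes in 19 lists, of which 305 had at least 1 window, 1490 windows in all. Of these windows 0 passed the adjusted threshold, which 0.0% of all windows passed, and the smallest adjusted p was 0.950 (limma). The median difference of a list ran from -0.596 to 1.24 points, beside 0 over all windows, and the share past p under 0.05 and 15 points from 0 to 10%, the latter being 1 of 10 windows, beside 2.17% of all windows.

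**Figure D5:**
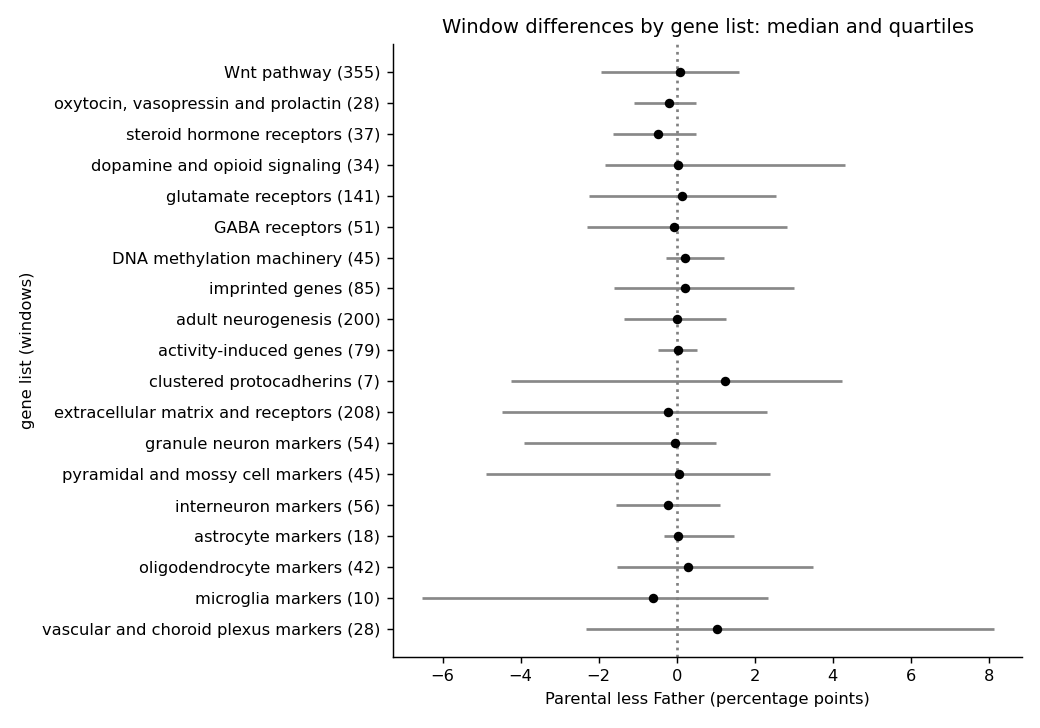
Median (point) and quartiles (line) of the window differences between “Parental” and “Father” in percentage points for each of the 19 gene lists, with the number of windows in brackets. The medians lie between -0.596 and 1.24 points, and the quartiles of every list reach across 0.

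The Wnt pathway, which steers the birth and maturation of granule neurons, was the longest list, with 355 windows at 67 genes. Of these, 6 (1.69%) were past p under 0.05 and 15 points, beside 2.17% of all windows. In this list 1 was higher in “Parental” and 5 in “Father” animals, the latter including the 3 by which Tcf7l2 was picked above. The smallest p of the list was at Bcl9, a β-catenin cofactor. “Parental” levels there were 75, 92.9, 79.2, 77.4 and 81.8% and “Father” levels 90, 91.6, 100, 100 and 100% (difference -15.1 points, limma adjusted p = 0.950). “Parental” animal 2 lay inside the “Father” range.

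Windows of oxytocin, vasopressin and prolactin genes averaged 9.67% in “Parental” and 9.14% in “Father” animals. The averages were 21.1% and 21.5% for steroid hormone receptors and 26.7% and 25.2% for dopamine and opioid signaling. Over all windows they were 29.0% and 29.1%. The 28 windows of oxytocin, vasopressin and prolactin genes had a median difference of -0.207 points, and 0 had an unadjusted p under 0.05. Their smallest p was at Sim1, a transcription factor of oxytocin neurons, with 0.580% ± 0.534 (SD, n = 6) in “Parental” and 2.46% ± 2.32 (SD, n = 5) in “Father” animals. Among 37 windows of steroid hormone receptors and their partners, 2 had an unadjusted p under 0.05, both higher in “Father” animals and neither by 15 points, led by Fkbp5, a regulator of the glucocorticoid receptor, with 0.771% ± 0.629 and 2.41% ± 1.55. Dopamine and opioid signaling had 1 of 34 windows (2.94%) past p under 0.05 and 15 points, beside 2.17% of all windows. The smallest p of this list was at Pnoc, the prepronociceptin gene. There “Parental” levels of 83.05 to 89.6% lay just above “Father” levels of 61.1, 82.6, 79.8, 65.6 and 77.4%.

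At receptors of the main transmitters, 3 of 141 windows of glutamate receptor genes (2.13%) were past p under 0.05 and 15 points. The share of all windows was 2.17%. All 3 were higher in “Parental” animals, a direction in which 1.03% of all windows were past it. By an unadjusted limma p under 0.05 alone, 4 windows of the list were higher in “Parental” and 3 in “Father” animals. Of GABA receptor genes 3 of 51 (5.88%) were past p under 0.05 and 15 points, 2 of them higher in “Parental” animals. The smallest p among glutamate receptors was at Gria1, an AMPA receptor subunit. “Parental” levels there were 100, 61.7, 38.99, 60.1 and 65.5%, and “Father” levels 27.6, 28.1, 37.5 and 31.7%. The groups stayed apart by a narrow margin, with a difference of 34.03 points (9.33 to 58.7, limma adjusted p = 0.950).

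The DNA methylation machinery, the enzymes that add, remove and read the mark, had 45 windows. Of these, 1 (2.22%) was past p under 0.05 and 15 points, beside 2.17% of all windows. This window lay 981 bp from Tet2, which oxidizes methylated cytosine. “Parental” levels were 16.2, 3.57, 7.94 and 6.04% and “Father” levels 11.97, 40, 19.2, 31.5 and 20%, so the groups overlapped. The difference of -16.1 points was -5.86 points with reads pooled within the window. It was 0 on the 1 cytosine covered in all of these animals, and 2 of 5 cytosines seen in both groups had its sign. Of 85 windows of imprinted genes, where one parental allele is methylated, 0 were past p under 0.05 and 15 points. Their smallest p was at Cdkn1c, a cell cycle inhibitor, with 3.29% ± 2.85 and 8.59% ± 2.84. The difference at Cdkn1c was 0.121 points with windows shifted by 500 bases. In the list for adult neurogenesis 2 of 200 windows (1%) were past p under 0.05 and 15 points, beside 2.17% of all windows. Both were higher in “Father” animals, a direction in which 1.14% of all windows were past it. The lists for activity-induced genes (0 of 79), clustered protocadherins (0 of 7), and extracellular matrix and receptors (4 of 208, 1.92%) were led by Fos, Pcdhb2 and Itga11. The differences there were -0.733, 10.1 and -2.86 points. On shared cytosines those at Pcdhb2 and Itga11 turned to -0.156 and 1.20 points.

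Markers of cell types were listed because a punch mixes the types, and no window at them passed the adjusted threshold. Granule neuron markers had a median difference of -0.0413 points over 54 windows, with 1 past p under 0.05 and 15 points, and the smallest p at Maml2 (0.0105% against 0.532%, with the sign turned in windows shifted by 500 bases). Pyramidal and mossy cell markers had 3 of 45 past it (6.67%), beside 2.17% of all windows, all higher in “Parental” animals (1.03% of all windows), with Fibcd1, a marker of CA1 neurons, at 33.8 to 81.8% in “Parental” and 15, 33.6, 5.62 and 40.3% in “Father” animals. These overlapped. Interneuron markers (0 of 56), astrocyte markers (0 of 18), oligodendrocyte markers (0 of 42) and vascular and choroid plexus markers (0 of 28) had none past it, with the smallest p at Gad2, Sox9, Olig2 and Pecam1.

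Microglia markers had 10 windows, of which 1 (10%) was past p under 0.05 and 15 points, beside 2.17% of all windows. It lay within Itgam, the gene of CD11b, at 60, 60, 53.2 and 33.3% in “Parental” and 80, 85.7, 80 and 77.1% in “Father” animals. Summed over cytosines, read counts there were only 30 to 161 per animal, and a read over several cytosines counts at each. No cytosine was covered in all of these animals. The part of the cell makeup of the punches in any window's difference was not tested.

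Dkk3, a secreted relative of Wnt inhibitors, Fzd10, a Wnt receptor, and Enpp2, which makes lysophosphatidic acid, are genes that the study followed. It named single CpGs in them that differed between “Attacker” and “Parental” animals. The windows here compare “Parental” with “Father” animals over several cytosines, so they do not repeat that comparison. None of the 7, 5 and 3 windows of these genes had an unadjusted p under 0.05. The window of Dkk3 with the smallest p (chromosome 8, 3736000 to 3736999) had 6.99, 33.2, 21.3, 24.6, 16.8 and 11.7% in “Parental” and 9.81, 9.66, 21.2, 1.02 and 18.5% in “Father” animals (difference 7.04 points, -4.82 to 18.9, limma adjusted p = 0.950). The ranges overlapped, with “Father” animal 4 below every “Parental” animal. At Fzd10 (chromosome 2, 18709000 to 18709999) the levels were 4.64% ± 3.36 (SD, n = 6) and 7.93% ± 2.74 (SD, n = 5), a difference of -3.30 points (-8.06 to 1.47), and of 1.51 points with windows shifted by 500 bases. At Enpp2 (LG3, 153000 to 153999), 5 of 6 “Parental” and 4 of 5 “Father” animals were at 0, and the sign of the difference turned without “Parental” animal 6.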

How the data were processed

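RRBS reads of each animal were trimmed with Trim Galore and aligned to MicOch1.0 with Bismark by the authors, who deposited counts of reads and of methylated reads per covered CpG cytosine, each strand on its own, without normalization. Levels were computed from these counts in windows of 1 kb and compared with limma 3.58.1 (lmFit on percent levels, eBayes with trend and robust) over 64954 windows, with Benjamini-Hochberg adjustment. Single values were compared by exact permutation tests over animals (SciPy). Animals were grouped by their labelled behavioral group. Libraries held 69449485 to 129376223 calls, and intervals cover the spread between animals. Genes came from a RefSeq table of MicOch1.0 with spans but neither exons nor strand, and no genome sequence was used. Named windows are the 5 with the smallest p in each direction, the smallest p of each gene list (for 2 lists it is not reported here), windows of the 5 genes with the most windows past p under 0.05 and 15 points in 1 direction (4 had at least 3, and the fifth, Necab3, had the smallest p among those with 2), and those of Dkk3, Fzd10 and Enpp2. The comparison and the gene lists were chosen with earlier results of these data known. Alternatives changed the coverage and cytosine minimums, the windows, the scale, the tool (edgeR 4.0.16 on the counts), covariates and the animals. The scripts were tested on simulated data.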

Additional observations from a re-analysis of the deposited data

Results flagged for a closer look

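In 8 of 110 groups of levels tested, 1 animal lay apart from its group by Dixon's criterion at 95%. Chance reaches it in about 1 of 20 groups of normally distributed values. Where all other animals of a group were equal, as at Hspa12a, Hlf and Enpp2, any other value is flagged whatever its size. At Hspa12a “Father” animal 2 had 7.45% and the other “Father” animals 0. In the window on an unplaced scaffold at 1834000 “Father” animal 5 had 76.5% and the nearest other 60.9%, and at Hlf “Father” animal 4 had 75.9% and the 3 others 66.7%. At Olig2 “Father” animal 4 had 1.61% and the nearest other 0.363%, and at Pecam1 “Father” animal 3 had 87.6% and the nearest other 85.9%. At Maml2 “Parental” animal 2 had 0.0529% and the nearest other 0.0103%. At Enpp2 “Parental” animal 6 had 3.57% and “Father” animal 4 had 0.463%, with all other animals of their groups at 0. The mean levels, depths and distances of the animals held no such value.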

How the results depend on the processing

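No window passed an adjusted p under 0.05 under 28 of the 29 alternatives, edgeR included, and 1 did with plain eBayes. The 1412 windows past p under 0.05 and 15 points became 639 with 20 reads per cytosine, 539 and 82 with at least 5 and 10 cytosines per window, 571 with a level in every animal, 613 on shared cytosines and 453 with edgeR. All of these but edgeR kept fewer windows, of which 1.36, 1.25, 0.305, 1.29 and 1.34% were past it, beside 2.17%, and the cause was not tested. Leaving out 1 animal gave 1393 to 1518. With the replicate number as a replicate block the count was 1196. The labels do not say that a number marks a litter or day. Deviations of same-numbered animals correlated at 0.00731 to 0.0200, and 2 of 5 numbers matched best with their own number. Whether the numbers pair the animals is not known.

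The difference of mean levels ran from -0.278 to 0.189 points without 1 animal and was 0.00489 with the median over windows. The difference between distances turned to -0.00338 with 5 reads, -0.000497 without cytosines over 500 reads, -0.000573 and -0.00122 with at least 5 and 10 cytosines, -0.000711 on shared cytosines and -0.00354 with pooled reads, and ran from -0.0190 to 0.0459 without 1 animal; the within-group difference ran from -0.309 to 0.0186. No p was under 0.05. Without 1 animal, class differences ran from -0.0261 to 0.0594 (under 10%), -0.826 to 0.415 (10 to under 50%), -0.690 to 0.436 (50 to under 90%), -0.151 to 0.0644 (90% and over), -0.294 to 0.104 (within genes) and -0.414 to 0.280 points (outside genes).

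Of 1138 differences of named windows under alternatives, 6 turned: on shared cytosines Pcdhb2 (-0.156) and Itga11 (1.20), with shifted windows Cdkn1c (0.121), Maml2 (0.470) and Fzd10 (1.51), and Enpp2 without 1 animal (-0.0926 to 0.622). Of the 44 named windows, 31 had a difference over 1.5 times smaller, or turned, under at least 1 alternative with all animals. The cause was not tested. At this depth and number of animals, few intervals exclude 15 points in windows of intermediate level.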
